A study of Mus musculus with 16 samples.

Results

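LINE1 methylation in mouse embryonic stem cells carrying the F46A substitution in the ubiquitin-like (UBL) domain of UHRF1 was compared with that in cells lacking Uhrf1. The comparison used 8 of the 16 libraries of the series, the 4 titled F46A and the 4 titled Uhrf1 KO. All were made from cells of the J1 (129S4/SvJae) background grown in serum with 2i and LIF, and no treatment beyond the genotype was given. The series also holds 4 libraries of unmutated wtJ1 cells, used here as a reference for the level before loss, and 4 of the H730A substitution. The sources used here do not say how many clones stand behind each genotype. Uhrf1 itself was not sequenced, and the genotypes are taken from the labels.

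UHRF1 is the adaptor of maintenance methylation. It binds hemimethylated DNA behind the replication fork through its SRA domain, ubiquitinates histone H3 through its RING domain, and thereby recruits DNMT1, which copies the methyl mark onto the new strand. The UBL domain at its N terminus stimulates the ligase, and F46A changes a residue of that domain, whereas H730A lies in the RING. LINE1 elements are retrotransposons repeated through the mouse genome, and their CpG methylation depends on this maintenance step. The question of the comparison is how nearly a UHRF1 with a mutated UBL resembles the absence of the protein.

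A LINE1 amplicon was produced by PCR from bisulfite-converted genomic DNA and sequenced. After bisulfite an unmethylated cytosine is read as T. The methylation level is therefore C calls divided by all C and T calls, in percent, and differences are in percentage points. A CpG site was analysed when all 8 libraries had at least 10 calls there, which left 10670 of the 46309 sites listed in any of them, with 90.8% of their calls. The 8 libraries held 998982 to 1287040 calls, with a median of 55 to 70 calls per site. Runs of sites no more than 200 bp apart and on the same strand made up 783 copies, with a median of 12 sites and 798 calls per copy and library. Of the copies, 223 lay within the span of an annotated gene and 100 on the X chromosome. The PCR reads carried no molecular identifiers. Intervals of single sites and copies come from counts, scaled by a moderated estimate of the spread between libraries that is held at counting error or above. Intervals of levels, genes, classes and positions come from the values of the libraries. Copies of LINE1 are near-identical, and the assignment of a read to a single copy is therefore uncertain.

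The libraries of the 2 genotypes differed in how alike they were among themselves. The Uhrf1 KO libraries were at 4.89, 4.95, 5.04 and 4.89%. The F46A libraries were at 5.62, 5.16, 4.27 and 6.53% for replicates 1 to 4. Replicates 1, 2 and 4 of F46A lay above all 4 knockout libraries and replicate 3 lay below all 4, so the knockout values sat inside the F46A range. Within Uhrf1 KO, the methylated calls at the deepest site of each copy did not differ beyond sampling noise in any pair of libraries (chi-square, p from 0.112 to 0.818), while coverage or the calls per amplicon position did in each pair. Within F46A the same measure gave p from 1.4e-21 to 0.283, and each pair differed in the calls per amplicon position. F46A replicate 3 had the fewest calls of the 8 libraries as well as the lowest level. The part of depth in that level was not tested in its own right, and the difference between the genotypes was 0.507 points after every site was thinned to 10 calls per library.

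**Figure D1:**
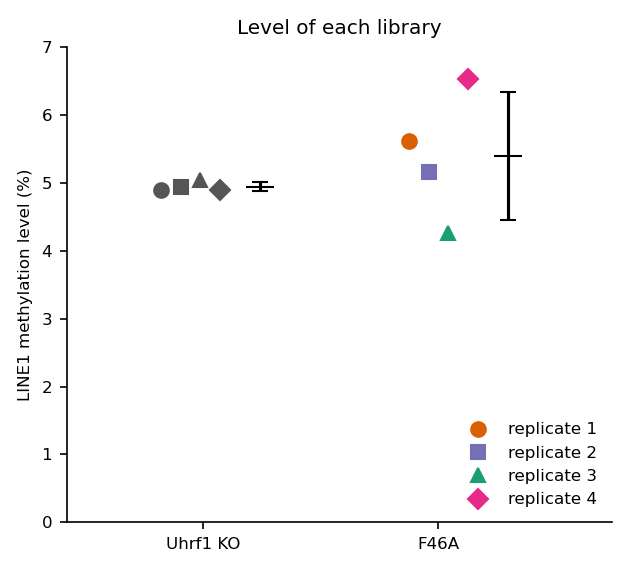
Methylation level (%) of each library over the 10670 tested CpG sites. Symbols are replicates, and the bar beside each group is the mean with its SD (n = 4); the Uhrf1 KO libraries lie between 4.89 and 5.04%, inside the F46A range of 4.27 to 6.53%.

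The mean level was 5.39% ± 0.944 (SD, n = 4) in F46A and 4.94% ± 0.0702 (SD, n = 4) in Uhrf1 KO. F46A was higher by 0.449 points, with a 95% interval from -0.777 to 1.64, and the difference did not exceed the spread between libraries (exact two-sided permutation test, p = 0.400). wtJ1 had a pooled level of 24.8% at the same sites, 19.8 points above the knockout. On that scale F46A covered 2.26% of the way from knockout to wild type, and the interval of the difference runs from -3.92 to 8.25%. The same share was 3.42, 1.07, -3.42 and 7.99% for F46A replicates 1 to 4. The SD among F46A libraries was 13.4 times that among knockout libraries. Leaving out F46A replicate 3 gave 0.825 points and leaving out replicate 4 gave 0.0705 points, so these libraries set its size.

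Copy by copy, F46A stayed close to the knockout in the level summed over the CpGs of a copy. Of the 783 copies, none passed a quasi-binomial test whose dispersion was moderated by limma (0% higher and 0% lower at an adjusted p under 0.05, lowest adjusted p 0.350). At an unadjusted p under 0.05 there were 56 copies (7.15%), 55 of them higher in F46A. limma on logit values called 0 copies. Fisher's exact test on summed calls, which holds no spread between libraries, called 102 higher and 7 lower. Without F46A replicate 3 the quasi-binomial model called 24 copies higher. On simulated data with the coverage and library levels of this comparison, the model recovered 36% of copies changed by 2 points and 92% of those changed by 5 points.

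How close each copy came is given by the interval of its difference rather than by the missing calls. For 717 of the 783 copies (91.6%) the 95% interval lay within 5 points on both sides of 0, and for 242 copies (30.9%) within 2 points. The mean knockout level was 4.94%, so the margin of 5 points is about as large as that level. A copy also sums CpGs whose differences had opposite signs, as given by position below. The median copy differed by 0.450 points, and the interquartile range ran from -0.0761 to 1.02. The largest estimates were -3.10 and 5.38 points. F46A was the higher genotype in 563 copies and the lower in 220, a count that rests on the same 8 libraries throughout. The SD of the differences over copies was 0.978 points, and the median standard error for a single copy was 0.875 points. That error holds the spread between libraries, including shifts shared by the copies, which do not widen the SD over copies. The 2 values therefore do not tell whether copies differ from each other beyond noise.

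**Figure D2:**
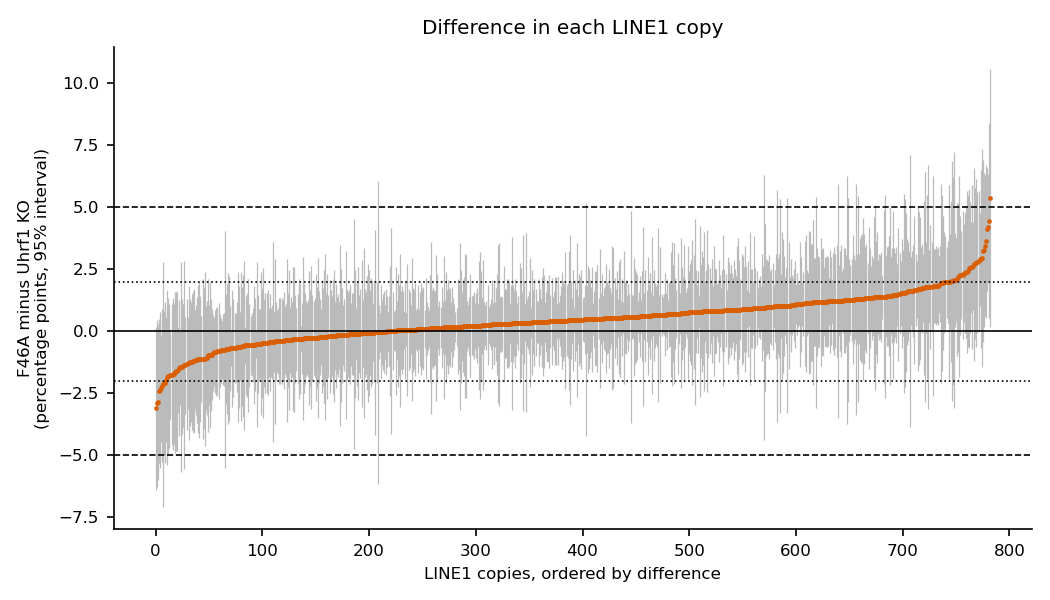
Difference of F46A minus Uhrf1 KO in percentage points (vertical axis) for each of the 783 copies, ordered by size (horizontal axis), with 95% intervals in grey. Dotted lines mark 2 points and dashed lines 5 points on both sides of 0; the intervals of 717 copies lie inside the dashed lines.

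The order of the F46A libraries ran through the copies. F46A replicate 4 was the highest F46A library in 483 copies and replicate 3 the lowest in 498. Replicate 4 lay above all 4 knockout libraries in 503 copies, and replicate 3 lay below all 4 in 374. Levels of single copies correlated between an F46A and a knockout library about as much as between libraries of 1 genotype. Over the 783 copies Pearson's r was 0.355 to 0.503 between genotypes, 0.365 to 0.513 within F46A and 0.415 to 0.478 within Uhrf1 KO. Over single sites the knockout libraries were more alike among themselves than they were to F46A. Over the 10670 sites r was 0.335 to 0.529 between genotypes, 0.339 to 0.48 within F46A and 0.599 to 0.617 within Uhrf1 KO. Over the sites with at least 100 calls it was 0.485 to 0.795, 0.507 to 0.789 and 0.859 to 0.88. These values describe the libraries, which share sites and, roughly, coverage.

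The most deeply covered copies were all near the knockout. The copy at chr16:16507552-16508118 (mm10), in the span of Fgd4, which encodes an exchange factor for the GTPase CDC42, had 26649 to 41426 calls per library. It was at 5.10, 4.72, 3.84 and 6.06% in F46A and at 4.47, 4.47, 4.63 and 4.59% in Uhrf1 KO. Its difference of 0.450 points had a 95% interval from -0.0314 to 0.931, the narrowest of all copies. The F46A libraries lie on both sides of the knockout libraries, in the same order as over all sites. The copy at chr2:42083590-42083732, in the span of the lipoprotein receptor family gene Lrp1b, differed by 0.552 points (95% interval -0.132 to 1.24). The copies at chr16:84941949-84942727 and chr14:100801299-100801865, both outside annotated genes, differed by 0.493 (-0.138 to 1.12) and 0.590 points (-0.0598 to 1.24). Among the 4 narrowest intervals were 2 copies with very little methylation in wtJ1. The copy at chr14:44299107-44299943, in the span of the lncRNA gene Gm32857, had 4.09% in wtJ1, 1.26% ± 0.420 in F46A and 1.63% ± 0.109 in Uhrf1 KO (SD, n = 4). The copy at chr5:104893872-104894205, outside genes, had 7.90% in wtJ1, 1.99% ± 0.742 in F46A and 2.48% ± 0.311 in Uhrf1 KO. F46A was the lower of the 2 genotypes at both, by 0.301 and 0.522 points as pooled calls, which the data do not tell from 0 (95% intervals -0.801 to 0.200 and -1.09 to 0.0410). In the fourth, chrX:14571292-14571646, the interval of the difference of 0.681 points lay above 0 (0.109 to 1.25), with an adjusted p of 0.524 in the quasi-binomial model.

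In 20 copies (2.55%) all F46A libraries lay above all knockout libraries, and in 2 (0.255%) they lay below. Of those with at least 100 calls in each library, the copy with the largest difference was chr6:18586315-18586457, outside annotated genes, with 10 sites. It was at 7.45, 10.6, 5.63 and 7.09% in F46A, at 4.51, 2.81, 3.60 and 3.51% in Uhrf1 KO and at 47.0% in wtJ1. Its difference of 4.19 points (95% interval 2.05 to 6.34) had an adjusted p of 0.350 in the quasi-binomial model. At 3 further copies, all outside annotated genes, the knockout libraries were again the lower set. chr11:16385831-16385973 was at 8.01% ± 0.931 in F46A, 5.15% ± 0.471 in Uhrf1 KO (SD, n = 4) and 38.7% in wtJ1. chr11:13616426-13616568 was at 7.38% ± 0.460, 5.18% ± 1.61 and 38.1%. chr2:90373626-90373768 was at 6.97% ± 0.977, 4.97% ± 0.856 and 34.3%. The remaining copies named in this direction, chr12:62959853-62959995 and chr5:61293329-61293683, were higher by 3.29 and 1.97 points, with 27.4 and 30.8% in wtJ1. The 2 copies with F46A below lay at chr1:162063665-162063760 in the span of Dnm3, a dynamin gene of membrane fission, and at chr7:52769599-52769741 outside genes. They differed by -2.86 and -1.80 points, on 108 to 274 calls per library, with adjusted p of 0.664 and 0.847 in the same model.

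Host genes gave levels close to the knockout too, with F46A libraries on both sides of it in most. Of the genes with the most calls, F8, which encodes coagulation factor VIII, held 3 copies and was at 6.33% ± 0.989 in F46A and 5.95% ± 0.298 in Uhrf1 KO (SD, n = 4). Slc8a1, a sodium-calcium exchanger gene, was at 5.84% ± 1.29 and 5.64% ± 0.258, and Cast, which encodes the calpain inhibitor calpastatin, at 5.33% ± 1.11 and 5.25% ± 0.537. Lrrc69 was at 5.31% ± 0.819 and 5.25% ± 0.304, and the lncRNA gene 5430428K19Rik at 5.97% ± 1.60 and 5.66% ± 0.660. In each of these genes the F46A libraries lay on both sides of the knockout mean. A list of 52 long genes of neurons or fragile sites had 12 members that held a copy, 17 copies in all. None of the 17 was called, 1 had an unadjusted p under 0.05 and 12 lay above 0, where these shares were 7.15% and 71.9% over all copies. Their median difference was 0.552 points beside 0.450 over all copies. Lrp1b, with 2 copies, was at 5.87, 5.17, 3.98 and 6.95% in F46A and at 5.15, 5.22, 5.03 and 4.61% in Uhrf1 KO. The X-linked synaptic receptor gene Il1rapl1 was at 4.68, 5.25, 4.26 and 5.73% in F46A and at 3.84, 4.22, 3.51 and 3.58% in Uhrf1 KO. In Il1rapl1 the groups did not overlap, with a difference of 1.19 points (95% interval 0.0361 to 2.21, exact permutation p = 0.0286, the smallest that 4 against 4 allows and not adjusted for the genes examined). Of 46 imprinted genes, Snrpn and Snhg14 shared 1 copy, at 4.90% ± 1.79 in F46A and 4.69% ± 0.667 in Uhrf1 KO. None of 15 genes of the DNA methylation machinery held a tested copy.

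F46A exceeded the knockout by 0.199 points in the copies with least methylation in wtJ1 and by 0.899 points in those with most. Both values depended on single libraries, at -0.160 and 0.485 points without F46A replicate 4 and at 0.492 and 1.38 points without F46A replicate 3. Copies were split into 4 classes by their pooled level in wtJ1, a split that uses no library of F46A or Uhrf1 KO. In the lowest class F46A was at 4.53% ± 0.855 and Uhrf1 KO at 4.33% ± 0.0652 (SD, n = 4). In the highest class F46A was at 6.98, 6.67, 5.30 and 7.98% and Uhrf1 KO at 5.71, 5.82, 6.03 and 5.77%, a difference of 0.899 points (95% interval -0.725 to 2.26). Within a class the groups overlapped, and no class passed (exact permutation p of 0.714, 0.429, 0.486 and 0.143 for classes 1 to 4, adjusted p at least 0.571). The step from the lowest to the highest class was taken within each library. It removes a shift that is equal in points in all copies of a library, but not one in proportion to the level. This step was 2.20, 2.59, 1.65 and 2.37 points in F46A and 1.42, 1.47, 1.61 and 1.50 points in Uhrf1 KO, so every F46A library had a steeper step than every knockout library. It differed by 0.700 points (95% interval 0.0407 to 1.17, exact permutation p = 0.0286, adjusted p = 0.171 over 6 such contrasts) and did not pass after adjustment. The smallest p that the design allows cannot pass over 6 contrasts or 4 classes unless several reach it. The other contrasts were between X and autosomes (0.00602 points), copies inside and outside genes (-0.132), copies with several units and a single unit (0.0335), the 2 strands (-0.0114) and deep and shallow copies (0.110), each with an adjusted p of at least 0.171.

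**Figure D3:**
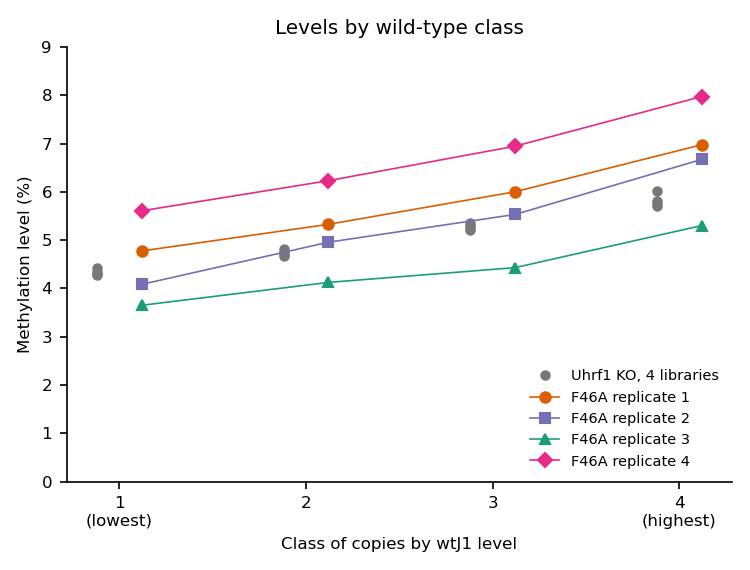
Methylation level (%) of each library in the 4 classes of copies, from lowest to highest wtJ1 level. Grey points are the Uhrf1 KO libraries and joined symbols the F46A libraries; from class 1 to class 4 the F46A libraries gained 1.65 to 2.59 points and the knockout libraries 1.42 to 1.61 points.

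The CpGs within the amplicon did not all follow the total. Most copies follow a shared template of 15 CpG positions, numbered in bp along the called strand, with the first CpG at 1. Not every copy holds each position: 39 tested sites lay at position 1, 333 at 18, 487 at 25 and 864 at 90. At 4 positions, 8, 34, 65 and 113 (26.7% of the 15), every F46A library was above every knockout library. At position 113 the F46A libraries were at 6.47, 9.03, 4.56 and 8.65% and the knockout libraries at 3.03, 3.09, 3.12 and 3.02%. At position 34 they were at 2.74, 4.03, 1.65 and 3.53% against 0.930, 0.918, 0.984 and 0.921%. At position 65 they were at 5.40, 4.23, 3.65 and 6.40% against 2.36 to 2.49%, and at position 8 at 2.45, 3.70, 1.52 and 3.01% against 1.05 to 1.18%. Even F46A replicate 3, the library with the lowest total, exceeded the knockout at these CpGs. The differences covered 14.3% of the way from knockout to wild type at position 113, 12.9% at 34, 8.78% at 65 and 7.06% at 8. For each the exact permutation test gave p = 0.0286, the smallest that 4 against 4 allows, or 0.107 adjusted over 15 positions. None passed, but this p cannot pass over 15 positions unless most of them reach it.

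The 5 positions with the highest level in Uhrf1 KO were 90, 49, 53, 103 and 110. The F46A mean was below the knockout mean at 90, 49, 53 and 110, and at 103 the means were close. Position 90 was at 11.4, 11.6, 11.7 and 11.6% in Uhrf1 KO and at 10.9, 6.72, 9.09 and 12.0% in F46A, where only replicate 4 was above the knockout. Position 49 was at 9.11 to 9.49% in Uhrf1 KO and at 8.87, 5.89, 7.06 and 9.76% in F46A. Position 110 was at 7.43 to 7.75% and at 6.95, 4.45, 6.48 and 7.85%, and position 53 at 8.43 to 8.63% and at 7.79, 8.22, 5.65 and 8.84%. The mean differences at positions 90, 49, 110 and 53 were -1.90, -1.39, -1.11 and -0.872 points, and at each the overlap came from F46A replicate 4 (exact permutation p from 0.143 to 0.257). Without that library the F46A libraries lay below the knockout at these 4 positions, and without F46A replicate 3 the difference at position 53 was -0.213 points. Position 103 was at 7.77 to 7.92% in Uhrf1 KO and at 7.88, 8.17, 5.64 and 9.13% in F46A, a mean difference of -0.144 points, with F46A replicates 2 and 4 above all knockout libraries and replicate 3 below. Positions 1, 18, 25, 29, 86 and 150 also overlapped, with differences from -0.0791 to 0.811 points. Position 1 was at 0.160% in wtJ1, so almost no methylation could be lost there.

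F46A replicate 2 stood apart from the other F46A libraries along the amplicon. In all knockout libraries and in F46A replicates 1, 3 and 4 the highest position was 90, followed by 49. In F46A replicate 2 it was 113, followed by 53 and 103. Over the 15 positions its levels correlated with the knockout libraries at r = 0.649 to 0.653 and with the H730A libraries at 0.855 to 0.926. With the other F46A libraries replicate 2 correlated at 0.727 to 0.861. For F46A replicates 1, 3 and 4 the correlations with the knockout were 0.897 to 0.957. Their lowest correlations with an H730A library were 0.686, 0.603 and 0.756, each above the highest of the knockout libraries with H730A, 0.542. Among the F46A libraries only replicate 2 reached 0.855 with H730A. Replicate 2 lay below all 4 knockout libraries at 515 of the 864 sites of position 90, against 158 to 351 for the other F46A libraries, so its low level there came from many copies. The share of calls at position 90 ranged from 8.12 to 8.14% and at position 113 from 7.97 to 7.99% over the 8 libraries. The share varied most at positions 1, 18 and 25, where the highest library had 1.21, 1.10 and 1.04 times the share of the lowest. F46A replicate 3 was the lowest at 1 and 18 and the highest at 25. Without replicate 2 the difference at position 113 was 3.50 points and at position 90 it was -0.917 points. At positions 49 and 110 it was -0.719 and -0.451 points without replicate 2.

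**Figure D4:**
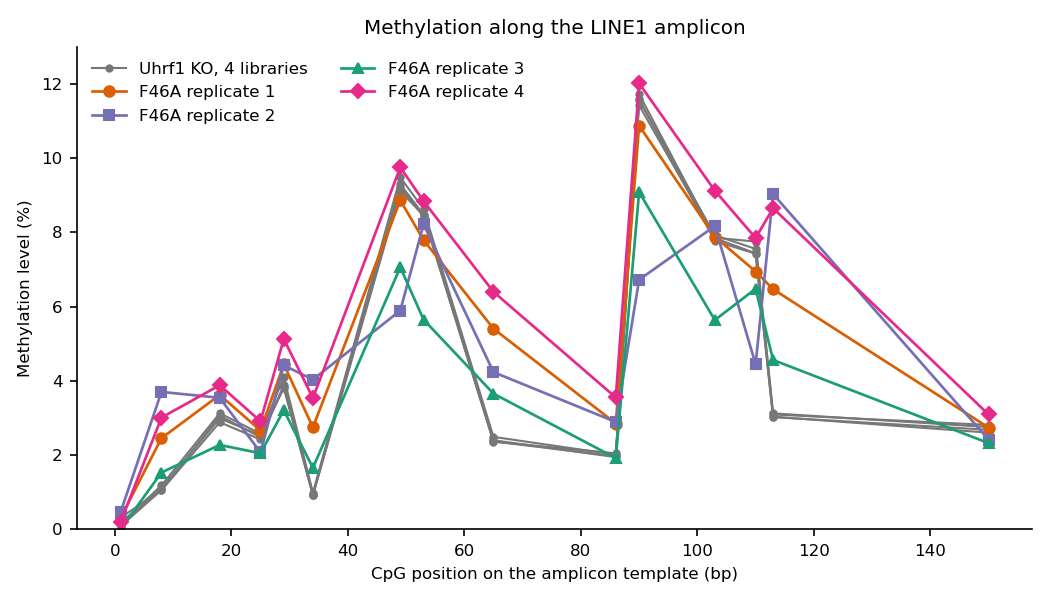
Methylation level (%) at the 15 CpG positions of the amplicon template (bp) in the 4 Uhrf1 KO libraries (grey) and the 4 F46A libraries (coloured). The knockout libraries overlie each other; at positions 34, 65 and 113 all F46A libraries run above them, and at position 90 only replicate 4 does.

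A ratio of 2 positions within a library is not changed by a factor that acts alike on both. The neighbouring CpGs at 113 and 110 were chosen for this after their values were seen. Position 113 had 0.407, 0.409, 0.403 and 0.407 times the level of position 110 in Uhrf1 KO, and 0.931, 2.03, 0.704 and 1.10 times in F46A. The lowest F46A ratio is above the highest knockout ratio, which is given as a description because the pair was chosen for its levels. wtJ1 had a ratio of 1.36. Of 34 relative to 49, and of 8 relative to 53, the ratios did not overlap either, at 0.234 to 0.684 in F46A against 0.0996 to 0.104, and at 0.270 to 0.450 against 0.124 to 0.136.

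Site by site, equality could be tested only coarsely at the coverage of most sites. The quasi-binomial test, moderated by limma, called 0 of the 10670 sites in either direction (0% higher and 0% lower, lowest adjusted p 0.102), and 1306 (12.2%) had an unadjusted p under 0.05, of which 1123 were higher in F46A. The estimate was within 2 points for 6140 sites and within 5 points for 9701. The 95% interval lay within 5 points for 3571 sites (33.5%) and within 10 points for 8441 (79.1%), so for most sites a difference of the size of the knockout level is not resolved. On data simulated in the same way as for copies, the model recovered 6% of sites changed by 5 points and 60% of those changed by 20 points. Of the unchanged sites 2.1% had an unadjusted p under 0.05, and the 95% interval held 0 in 98.8%. Other tools differed: limma on logit values called 1 site, and Fisher's exact test on summed calls 577 higher and 30 lower.

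Differences passed when the model was fitted again to the sites with more calls. Each fit moderated the dispersion over its own sites, so the p-value of a site changed as well. In the quasi-binomial test an unadjusted p under 0.05 was reached at 1306 of all 10670 sites, and at 1358 of the 7508 with at least 30 calls. The part of depth in these calls was not tested. Among the 7508 sites with at least 30 calls in all 8 libraries, 272 (3.62%) were higher in F46A and 1 (0.0133%) was lower. Among the 1898 sites with at least 100 calls, 330 (17.4%) were higher and 13 (0.685%) lower (quasi-binomial model with limma, adjusted over those sites, lowest adjusted p 2.07e-14). The higher calls were gathered at the positions named above. They comprised 114 of the 152 such sites at position 113, 80 of 138 at position 34, 76 of 152 at position 65 and 53 of 138 at position 8, with 6 at position 86 and 1 at position 103. The 13 lower calls were 5 at position 90 and 4 each at 49 and 110. The count of higher sites was between 223 and 400 when any 1 library was left out, 191 with limma on logit values and 327 with each library's level as an offset. The count of lower sites depended on the setting, at 0 with limma on logit values, 105 with the offset and 3 to 41 with 1 library left out (41 without F46A replicate 4). Sites of a position share the same 8 libraries and are not independent replicates of a genotype. The small p-values of sites come from call counts and a dispersion moderated over sites (median 1.43), with only 4 libraries per genotype. On library levels the exact permutation test gave p = 0.0286 at positions 8, 34, 65 and 113, the smallest that 4 against 4 allows. The median difference at these sites was 4.18 points at position 113, 2.55 at 65, 2.02 at 34 and 1.54 at 8, near those over all sites of the positions.

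**Figure D5:**
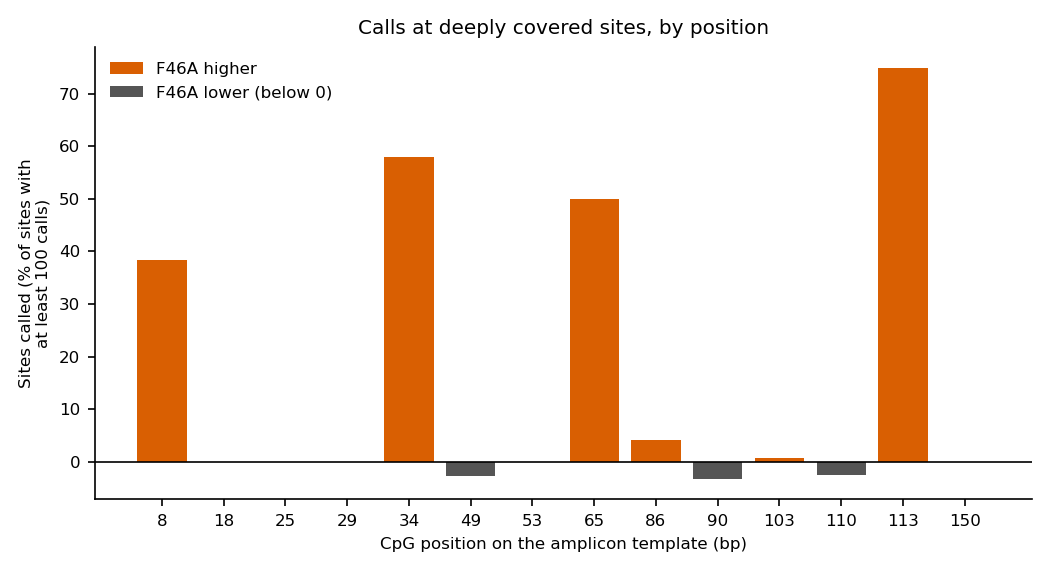
Share of CpG sites with at least 100 calls in all 8 libraries (vertical axis, %) that were called higher in F46A (orange) or lower (grey, drawn below 0), by amplicon position in bp. At position 113, 114 of 152 sites were called higher; calls in the lower direction were at positions 49, 90 and 110.

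Single sites with the widest separation lay mostly at the positions that differed most. The level of a position sums the calls of such sites, so these are the same data and no second line of support. Sites with at least 30 calls per library and no overlap between the genotypes were ranked by difference, from the 672 sites (6.3%) with all F46A libraries above and the 146 (1.37%) with all below. Of the 8 named with F46A above, 7 were at position 113, and all 4 named with F46A below were at position 90. The site with the largest difference, chr2:23939228 (outside genes, position 103), was at 35.6, 28.9, 28.6 and 24.2% in F46A, at 12.2, 10.2, 11.3 and 20.8% in Uhrf1 KO and at 70.1% in wtJ1, a pooled difference of 15.8 points (95% interval 6.99 to 24.6). chrX:21865399 (outside genes, position 113) was at 13.6, 17.6, 12.3 and 16.9% in F46A, at 3.90, 0, 2.94 and 5.48% in Uhrf1 KO and at 43.7% in wtJ1. A site in the span of the fibroblast growth factor family gene Fgf12, chr16:28191392, was at 11.3% ± 3.87 in F46A and 2.15% ± 1.29 in Uhrf1 KO (SD, n = 4). The others at position 113 were chrX:23535698, chr12:68441053, chr2:83414335, chr13:50120015 and chr9:52385107, higher by 14.0, 10.2, 10.2, 10.2 and 10.2 points.

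In the opposite direction, chr8:28970784 in the span of the netrin receptor gene Unc5d was at 8.82, 1.79, 3.77 and 12.4% in F46A and at 13.6, 16.9, 17.7 and 16.7% in Uhrf1 KO. Its pooled difference was -8.50 points (95% interval -14.8 to -2.16). chr14:22835606 in the span of Lrmda differed by -8.66 points as pooled calls (95% interval -16.0 to -1.33). chr4:88361200 in the span of Focad was at 8.33% ± 4.02 in F46A and 16.7% ± 4.80 in Uhrf1 KO (SD, n = 4), and chr10:13895023 outside genes at 8.11% ± 2.30 and 17.2% ± 4.03. Over all 10670 sites these 12 had adjusted p of 0.106 to 0.372 in the quasi-binomial test moderated by limma, so none passed. The same test was fitted and adjusted again over the 7508 sites with at least 30 calls, the set from which they were named. There the 8 with F46A above passed (adjusted p of 0.0048 to 0.0460) and the 4 with F46A below did not (0.111 to 0.187). All 12 were named for their large differences without overlap in these 8 libraries, so the passing of the 8 is no separate support.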

How the data were processed

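The files of 16 bisulfite amplicon libraries were deposited, with group and replicate in the titles. Each lists, per CpG site and strand, deposited counts: the count of C calls and the count of C and T calls together. The deposited ratio column, the fraction of C calls, was not used. Trim Galore 0.3.1, BSMAP 2.90, methylKit and mm10 are named without roles in the submitters' processing notes. The files hold CpG context only, which leaves the conversion rate unknown. The sources used here do not state how reads matching several LINE1 copies were assigned.

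A library's level is the sum of methylated calls over the sum of calls at sites with 10 calls in all 8 libraries. The most common pattern of CpG distances (128 copies), extended by distances in at least 30 copies, gave the 15 positions. It placed 10544 sites in 892 units of at least 6 sites, and 126 sites fell off it. Genes were assigned by span, protein-coding or lncRNA, from RefSeq for GRCm38.p6, on which mm10 is based, without regard to exons.

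Library values were tested by exact two-sided permutation (double the smaller tail, smallest p 0.0286 for 4 against 4 and 0.0571 for 3 against 4), with 95% intervals by inversion. Whether replicates were separate cultures is not stated, so p-values measure the spread between these samples. Sites and copies were fitted by a quasi-binomial model, with dispersion moderated by limma 3.58.1 (R 4.3.3) and held at 1 or above, and adjusted by Benjamini-Hochberg at 0.05. Moderation and adjustment ran over the sites or copies of each fit, and each coverage minimum was a fit of its own. Intervals of single differences use levels with 0.5 calls added to each class. The median dispersion was 1 over sites, where the p-value of many sites then reflects counting error alone, and 2.46 over copies. In simulated data with 200 changed features, 0 unchanged sites and 1 unchanged copy were called. The simulation drew binomial counts with a single factor per library. It held none of the spread between F46A libraries by position, so its rates need not hold for calls gathered at positions.

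Members, lists and tests were chosen with earlier results of these data known. Named sites had at least 30 calls per library and no overlap, 1 per 1000 bp: the 8 largest differences with F46A higher and the 4 largest lower. Copies were named likewise from at least 100 calls, with the 4 deepest and the 4 with the narrowest interval, and genes by most calls (8, and 2 per list). Of these, 2 copies and 1 gene are not reported here. Alternatives were coverage minimums of 30 and 100 calls, 10 calls in all 16 libraries, unweighted means, removal of the 0.1% deepest sites, single strands, thinning, gaps of 100 and 500 bp, single-unit copies, each replicate left out, the replicate block, limma on logit values (offset 0.5), Fisher's exact test, free dispersion, library level as offset, and a fit of 16 libraries. For sites with 100 calls they were chosen after seeing the data, as were the ratios of positions and the contrasts other than between wild-type classes.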

Additional observations from a re-analysis of the deposited data

Results flagged for a closer look

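Of 122 groups of 4 libraries examined for a value far from the others, 2 were marked by the gap to the nearest library relative to the range, where chance marks about 1 in 20. The copy at chr5:61293329-61293683 was at 9.59% in F46A replicate 4 and at 6.69 to 6.78% in the other F46A libraries. The copy at chr14:100801299-100801865 was at 3.84% in F46A replicate 3 and at 5.42 to 5.64% in the others. These libraries are also the highest and the lowest F46A library over all sites.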

How the results depend on the processing

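The level difference stayed between 0.420 and 0.507 points under the other coverage, weighting, strand and thinning choices, and between 0.0705 and 0.825 points with 1 library left out. It did not pass in any of these, and with 3 against 4 libraries the design cannot pass. The count of sites higher in F46A, 0 in the main analysis, was 272 with a minimum of 30 calls, 330 with 100 calls, 1 with limma on logit values, 577 with Fisher's exact test, 59 with dispersion not held at 1 and 208 in a fit of all 16 libraries, and 0 to 5 with 1 library left out (5 without F46A replicate 3). The count lower was 1, 13, 30 and 2 with 30 calls, 100 calls, Fisher's exact test and free dispersion. Copies called by Fisher's exact test were 102 higher and 7 lower, and with 1 library left out 0 to 24 were higher (24 without F46A replicate 3) and 0 lower. Among sites with 100 calls, the 330 higher became 191 with limma on logit values and 223 to 400 with 1 library left out. The 13 lower became 7 with the replicate block, 0 with limma, 54 with Fisher's exact test, 105 with the library level as offset and 3 to 41 with 1 library left out, the most without F46A replicate 4. Positions without overlap ranged from 4 to 7 with F46A higher (7 without F46A replicate 3) and from 0 to 4 with F46A lower (4 without F46A replicate 4).

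The difference in the lowest wild-type class ranged from -0.160 (without F46A replicate 4) to 0.492 points. With 1 library left out it ranged at position 25 from -0.242 to 0.0461 (0.0378 and 0.0461 without F46A replicates 2 and 3), at position 103 from -0.618 to 0.546 (0.546 without replicate 3) and at position 150 from -0.220 to 0.0378 (0.00557 and 0.0378 without replicates 2 and 3). With the library level as offset the fitted log odds of the copies at chr16:16507552-16508118 and chr16:84941949-84942727 were -0.00447 and -0.00262, and with 1 library left out the second ranged from -0.0498 (without F46A replicate 4) to 0.754 points. The cause of these shifts was not tested.

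Same-numbered libraries of the genotypes share only a number. Their deviations from the group means correlated at -0.0297 to 0.0440 over copies, and 1 of 4 F46A libraries correlated best with its own number. With the replicate block the level difference had an exact p of 0.500 by sign flips of the 4 paired differences, 0 sites and 0 copies were called, and 299 sites with 100 calls were higher. Depth limits the site results: the median 95% interval reaches 4.50 points to each side.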

Other observations

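CpG sites without a single methylated call were counted. Over the 4 libraries of a genotype, 381 of the 10670 sites (3.57%) had 0 methylated calls in Uhrf1 KO and 196 (1.84%) in F46A, with a median of 274 and 247 calls per site. In single libraries the shares overlapped, at 13.5, 17.0, 24.8 and 12.7% in F46A and 18.7 to 21.1% in Uhrf1 KO, with F46A replicate 3 the highest of the 8. At position 34 the counts were 75 and 16 of 705 sites, at position 8 they were 88 and 20 of 766, at position 65 they were 49 and 12 of 853, and at position 113 they were 21 and 2 of 851. By library, the share of position 34 sites with 0 methylated calls was 44.8 to 51.2% in Uhrf1 KO and 21.0, 17.4, 42.3 and 16.7% in F46A. There all F46A libraries lay below the knockout libraries, replicate 3 nearest to them. No test was run on these counts. No site of position 90 had 0 methylated calls over the libraries of either genotype.

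The H730A libraries, from the same series but no part of the comparison, give a scale for the positions. At position 113 they were at 12.5 to 14.8%, above every F46A library (4.56 to 9.03%). At position 90 they were at 7.65 to 11.0%, and F46A replicate 2, at 6.72%, was below all of them. The ratio of position 113 to position 110 was 1.76 to 2.47 in H730A, a range that holds F46A replicate 2 (2.03) and none of the other F46A libraries (0.704 to 1.10).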
